A study of Mus musculus with 6 samples.

Results

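The genes described are 38 genes of the endoplasmic reticulum (ER), the compartment where secreted and membrane proteins are folded: its chaperones, its disulfide enzymes, the sensors of the unfolded protein response, and the machinery of protein entry and of ER-associated degradation. They were chosen by name, as the rows of the deposited gene table that carry their symbols. The rule used none of their values, but the list was made with earlier results of these data known. All 38 were found among the 17744 genes of the table. All 38 passed the filter on low values and were tested among 10655 genes. The table holds RNA-seq values of mouse spleen CD8 T cells, isolated by a CD45+ CD3+ CD8a+ sort and over 90% positive per the labels, with 3 libraries from control mice (genotype wt, treatment control) and 3 from mice labelled "fus irradiation" for both genotype and treatment. The series title speaks of focused ultrasound, and the 3 libraries are called ultrasound libraries here. The labels name no strain, sex, age, ultrasound dose or interval between treatment and sorting, and they do not say whether a library came from 1 animal or from a pool. P-values therefore measure the spread between these libraries only.

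When unfolded protein builds up in the ER, the chaperone BiP, the product of Hspa5, leaves the sensors IRE1 (Ern1), PERK (Eif2ak3) and ATF6. IRE1 splices the Xbp1 message into the form that encodes an active transcription factor, ATF6 is cut to release another, and PERK lowers translation through eIF2 and raises ATF4. The factors made by Xbp1 and Atf6 act on genes for chaperones, disulfide enzymes and ER-associated degradation. In lymphocytes the Xbp1 branch is best known from plasma cells, which secrete antibody, and it is also active in effector CD8 T cells. FPKM values sum all spliced forms of a gene, so they do not report the splicing of Xbp1.

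A DNA sequence shared by several of these promoters, the ER stress response element, is shown first, because the genes that carry it did not all differ in the same direction. RefSeq promoter windows on GRCm38.p6, the assembly also named mm10, run from 250 bases before to 50 bases after a gene's start, 300 bases in all. They were found for 32 of the 38 genes, and Hyou1, Manf, Atf6, Derl1, Sec61a1 and Ssr2 had none. The element was searched on both strands as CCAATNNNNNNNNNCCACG, allowing overlap with other motifs. It was present in 9 of the 32 genes (28.1%) and in 37 of all 27025 genes with a window (0.137%). Counted by window, it was present in 39 of 32851 (0.119%). Of 73 other genes of the same pathways with a window, 0 had a match. The element was defined on promoters of genes such as the members, so the share among the members is not independent of their choice. A match is a match of letters and not a bound site. Each match is printed 5′ to 3′ on the strand that reads it forward, given after the coordinates, with the fixed letters in capitals and 5 bases on each side. Hsp90b1 has a pair of matches, one on each strand.
Hspa5 chr2:34772020-34772048 +: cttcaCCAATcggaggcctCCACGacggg
Hsp90b1 chr10:86705633-86705661 -: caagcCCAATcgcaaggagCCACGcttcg
Hsp90b1 chr10:86705528-86705556 +: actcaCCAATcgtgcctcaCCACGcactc
Calr chr8:84847070-84847098 +: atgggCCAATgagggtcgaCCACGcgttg
Canx chr11:50325795-50325823 -: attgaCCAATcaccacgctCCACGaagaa
Dnajc3 chr14:118937822-118937850 +: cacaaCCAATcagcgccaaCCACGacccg
Pdia6 chr12:17266486-17266514 +: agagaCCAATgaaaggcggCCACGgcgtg
Ero1b chr13:12565677-12565705 -: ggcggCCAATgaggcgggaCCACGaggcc
Creld2 chr15:88819515-88819543 -: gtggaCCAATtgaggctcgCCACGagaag
Syvn1 chr19:6046527-6046555 +: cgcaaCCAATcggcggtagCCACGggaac

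For a view of the element in its surroundings, the bases before the start that lie in no annotated exon are printed on the gene's own strand for the genes Creld2 and Pdia6, which rose, and for Hsp90b1. The element is in capitals, and in Creld2 and in the second match of Hsp90b1 it appears as its reverse complement.
Creld2 chr15:88819396-88819645 +: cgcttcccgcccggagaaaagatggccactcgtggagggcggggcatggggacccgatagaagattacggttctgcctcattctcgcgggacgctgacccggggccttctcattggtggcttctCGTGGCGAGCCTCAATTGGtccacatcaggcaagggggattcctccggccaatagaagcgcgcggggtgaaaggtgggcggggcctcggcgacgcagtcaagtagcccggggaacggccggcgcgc
Pdia6 chr12:17266339-17266544 +: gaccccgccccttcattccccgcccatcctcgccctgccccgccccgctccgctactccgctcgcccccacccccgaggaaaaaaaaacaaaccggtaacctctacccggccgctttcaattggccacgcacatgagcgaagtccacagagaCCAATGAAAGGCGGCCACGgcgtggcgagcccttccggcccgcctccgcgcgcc
Hsp90b1 chr10:86705510-86705694 -: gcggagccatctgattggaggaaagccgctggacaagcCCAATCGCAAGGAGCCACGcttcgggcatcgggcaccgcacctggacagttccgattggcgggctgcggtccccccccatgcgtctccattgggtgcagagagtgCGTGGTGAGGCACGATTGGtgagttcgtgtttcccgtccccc

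The shorter ER stress response element II, searched on both strands as ATTGG, any base, then CCACG, was present in 12 of all windows (0.0365%), 2 of them those of Dnajb11 and Herpud1. In Dnajb11 it starts at base 8, counting the annotated start of transcription as base 1, and in Herpud1 it spans bases -52 to -42.
Dnajb11 chr16:22857847-22857867 +: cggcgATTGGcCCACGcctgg
Herpud1 chr8:94386372-94386392 +: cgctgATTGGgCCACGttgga

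The core of the unfolded protein response element, TGACGTGG, was found in Vcp alone among the members and in 0.676% of all windows. The cyclic AMP response element TGACGTCA was found in no member and in 1.79% of all windows. The ATF4 element TGATGNAA was found in Herpud1 alone among the members and in 3.97% of all windows.

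All libraries were deep: the reads counted on genes, recovered from the deposited values, ranged from 35024080 to 38113103 per library. T cell markers were high throughout, with Cd3e between 165 and 310 FPKM and Cd8a between 251 and 314 FPKM, and 0 of the 9 listed T cell markers in the table differed between the groups by limma at an adjusted p under 0.05 (0 also at an unadjusted p under 0.05). Their summed FPKM was 2809 to 2963 in the controls, 2448 in ultrasound library 1, which lay below all controls for 9 of 9, and 3276 and 3013 in ultrasound libraries 2 and 3. Markers of other cells were also present and differed between libraries. The summed FPKM of 9 B cell markers was 245 to 378 in the controls, 181 in ultrasound library 1, and 947 and 823 in ultrasound libraries 2 and 3. Ultrasound library 1 lay below all controls for 9 of 9 B cell markers, and ultrasound libraries 2 and 3 lay above them for 9 of 9. The sum of 7 plasma cell markers was 114 to 178 in the controls and 266 to 328 in the ultrasound libraries, and that of 10 macrophage and monocyte markers was 359 to 802 against 1981 to 3367. The sum of 10 neutrophil markers was 189 to 578 against 652 to 2326, that of 8 NK cell markers 106 to 195 against 270 to 488, and that of 10 dendritic cell markers 1177 to 2314 against 1218 to 4173. No marker of these lists was at 0 in any library. Because ultrasound library 1 stands apart from the other ultrasound libraries, results are also given without it.

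Expression of 6 of the 38 genes differed between the groups. Xbp1, Ern1, Creld2 and Pdia6 rose in the ultrasound libraries, and Hspa5 and Dnajb9 fell. The test was limma on log2(FPKM + 1), with p-values adjusted by Benjamini-Hochberg over the 10655 genes and a threshold of 0.05, and a difference on that scale understates the change of low genes. The 6 genes are 15.8% of the members, against 8.11% of all genes tested that passed the same threshold. By direction, 4 members rose where 6.55% of all genes did, and 2 fell where 1.56% did. The 3 ultrasound libraries all lay on one side of the 3 controls for 18 members, 16 above and 2 below, against 34.8% of all genes tested, 25.9% above and 8.96% below. The median difference of the members was 0.24 log2 units, and that of all genes tested was 0.09. Since a scaling by median-of-ratios size factors moved the median of all genes to -0.02, differences are best read against that median. The median of the members exceeded it by 0.15 in the values as deposited and by 0.15 after that rescaling. On the RefSeq annotation of GRCm38.p6, Hspa5 (NCBI Gene 14828) lies at chr2:34772090-34776529, Dnajb9 (27362) at chr12:44205897-44210068 and Pdia6 (71853) at chr12:17266589-17284785. Creld2 (76737) lies at chr15:88819646-88826681, Ern1 (78943) at chr11:106397620-106487796 and Xbp1 (22433) at chr11:5520641-5525993. As a count, 33 members had a point estimate above 0 and 5 below, but 23 and 15 after the rescaling, where 10 small differences turned negative. Expression summed over cells of several types was measured, so a difference in the number of cells of a type and a difference in RNA per cell cannot be told apart.

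**Figure D1:**
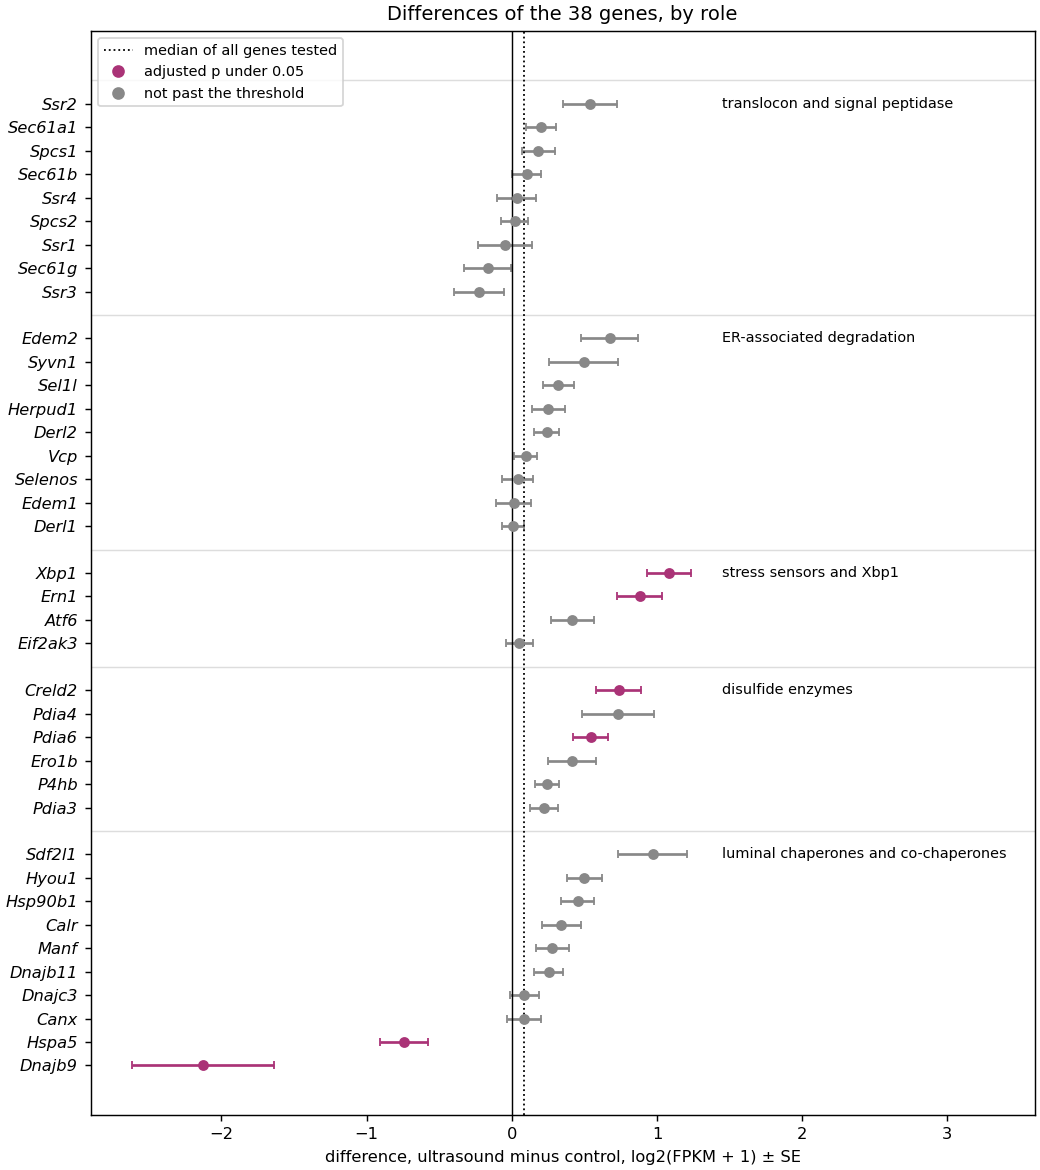
Difference between the ultrasound and control libraries on the log2(FPKM + 1) scale for each of the 38 genes, with its standard error from limma, in blocks by role; the dotted line is the median of all genes tested and coloured points have an adjusted p under 0.05. Hspa5 and Dnajb9 lie far to the left of the other chaperones, and the points farthest to the right are Xbp1, Sdf2l1 and Ern1, of which Sdf2l1 did not pass the test.

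Among the sensors and their transcription factor, Ern1 and Xbp1 rose together. Ern1, the sensor with kinase and endonuclease activity, was at 2.57, 2.09 and 2.01 FPKM in the controls and at 4.19, 4.51 and 6.24 FPKM in the ultrasound libraries. Every ultrasound library lay above every control, and the third was the highest. The means were 2.22 ± 0.304 and 4.98 ± 1.10 FPKM (SD, n = 3 each), a 2.24-fold ratio and a log2 difference of 0.88 ± 0.16 (SE, limma adjusted p = 0.0312).

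Xbp1, whose spliced message encodes the factor that acts on many ER genes, was at 42.2, 32.5 and 33.5 FPKM in the controls and at 77.7, 66.0 and 89.0 FPKM in the ultrasound libraries. The groups were well apart, with the lowest ultrasound value above the highest control value. Means of 36.1 ± 5.36 and 77.6 ± 11.5 FPKM (SD, n = 3 each) gave a 2.15-fold ratio and a log2 difference of 1.08 ± 0.15 (SE, limma adjusted p = 0.0297). Xbp1 had the smallest adjusted p of the 38 genes and, on the log2(FPKM + 1) scale, the largest positive difference. By ratio of means Ern1 was higher, at 2.24-fold. With a pseudocount of 0.1 the difference of Ern1 was 1.11 and that of Xbp1 1.10. In Xbp1 ultrasound library 1 differed from the controls as much as the others, by 1.09 log2 units against 0.86 and 1.29.

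The other sensors did not pass the test. Atf6, a membrane-bound transcription factor released by cleavage, was at 7.11, 5.67 and 4.67 FPKM in the controls and at 7.38, 8.04 and 8.64 FPKM in the ultrasound libraries (log2 difference 0.42, limma adjusted p = 0.118). Its groups did not overlap, but control library 1 and ultrasound library 1 were nearly level. Eif2ak3, which encodes PERK, was at 11.2, 10.5 and 10.2 FPKM in the controls and at 10.3, 11.2 and 11.7 FPKM in the ultrasound libraries, and its groups overlapped (log2 difference 0.05, limma adjusted p = 0.703). Of the 6 tested plasma cell markers 3 (Jchain, Derl3 and Sdc1) were called higher, 1 (Irf4) lower and 2 (Mzb1 and Prdm1) did not pass. Of all genes tested, 6.55% were called higher and 1.56% lower. Sdc1 reached the filter on low values only because it was higher in the ultrasound libraries, so its call adds no support. The values of the plasma cell list are given after the members. The part of such cells in these differences was not tested.

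The luminal chaperones and co-chaperones split. Hspa5 and Dnajb9 fell, while 4 other genes of the 10 had ultrasound values all above the controls without passing the test. Hspa5 encodes BiP, the ER member of the Hsp70 family and the most abundant of the 38 messages in the controls. It was at 416, 452 and 443 FPKM in the controls and at 333, 214 and 247 FPKM in the ultrasound libraries. All ultrasound values lay below all control values, with library 1 the nearest to the controls. The means were 437 ± 18.6 and 265 ± 61.6 FPKM (SD, n = 3 each), a ratio of 0.606 and a log2 difference of -0.74 ± 0.16 (SE, limma adjusted p = 0.0447). Hspa5 ranked first of the 38 genes by mean FPKM in the controls and second, after Calr, in the ultrasound libraries.

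Dnajb9, which encodes the co-chaperone ERdj4, a J-domain partner of BiP that also restrains IRE1, had the largest difference of the 38 genes. It was at 74.2, 82.9 and 77.9 FPKM in the controls and at 42.6, 10.4 and 11.1 FPKM in the ultrasound libraries. The controls were close to each other, whereas ultrasound library 1 was about midway between the controls and the other ultrasound libraries. Means of 78.3 ± 4.38 and 21.4 ± 18.4 FPKM (SD, n = 3 each) gave a ratio of 0.273 and a log2 difference of -2.13 ± 0.49 (SE, limma adjusted p = 0.0476). By mean FPKM the gene moved from rank 9 to rank 31 of the 38. Depth did not limit this value, since 728 to 5418 reads were counted on Dnajb9 per library.

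Hsp90b1, which encodes GRP94, the ER member of the Hsp90 family, was at 169, 152 and 136 FPKM in the controls and at 189, 211 and 224 FPKM in the ultrasound libraries. Its groups did not overlap and its point estimate was opposite in sign to that of Hspa5, but it did not pass the threshold (log2 difference 0.45 ± 0.12, SE, limma adjusted p = 0.0601). Sdf2l1, a partner of ER J-domain proteins, was at 21.0, 14.9 and 13.6 FPKM in the controls and at 23.9, 34.7 and 42.3 FPKM in the ultrasound libraries (log2 difference 0.97 ± 0.24, SE, limma adjusted p = 0.0538). Here ultrasound library 1 was only slightly above control library 1. Hyou1, an exchange factor of BiP related to Hsp110, was at 25.5, 24.7 and 24.1 FPKM in the controls and at 30.3, 35.7 and 41.1 FPKM in the ultrasound libraries (log2 difference 0.50 ± 0.12, SE, limma adjusted p = 0.0516). These 3 genes are those of the group closest to the threshold, and the authors' deposited table gives Sdf2l1 a q of 0.0138.

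The remaining chaperones differed less. Dnajb11, the co-chaperone ERdj3, had a log2 difference of 0.25 with groups that did not overlap (limma adjusted p = 0.137). Calr, the lectin chaperone calreticulin, was at 299, 281 and 269 FPKM in the controls and at 297, 384 and 404 FPKM in the ultrasound libraries. Ultrasound library 1 lay among the controls for Calr and the other ultrasound libraries above them. Manf, a small secreted ER protein, was at 0.28, Canx, the membrane-bound relative of calreticulin, at 0.08, and Dnajc3, the co-chaperone p58IPK, at 0.09 log2 units, each with overlapping groups and limma adjusted p between 0.143 and 0.638 for these genes and Calr. The Canx and Dnajc3 differences were -0.04 and -0.03 after rescaling by size factors.

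**Figure D2:**
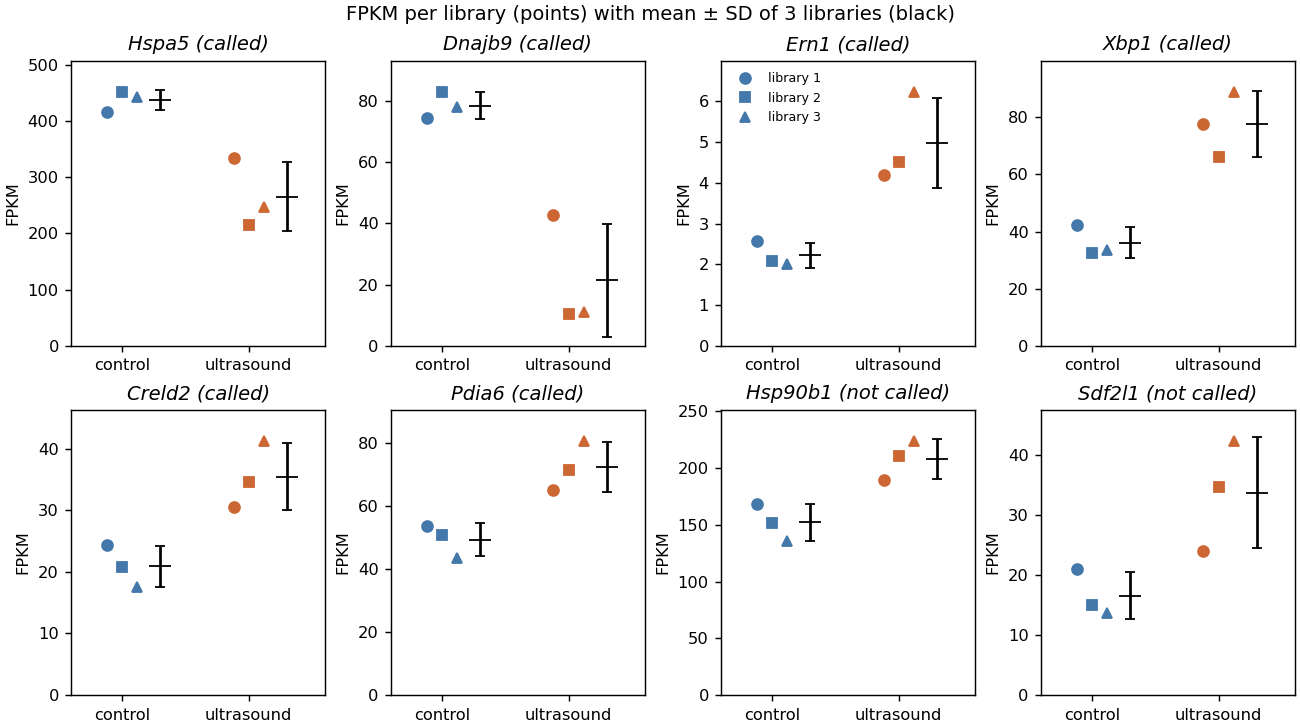
FPKM in each control and ultrasound library (points, with one symbol per library number) and the mean ± SD of 3 libraries (black) for the 6 genes with an adjusted p under 0.05 ("called") and for Hsp90b1 and Sdf2l1. For Hspa5 and Dnajb9 ultrasound library 1 is the highest of its group, between the controls and the other ultrasound libraries, and for Ern1, Creld2, Pdia6, Hsp90b1 and Sdf2l1 it is the lowest.

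Ratios within a library do not depend on how libraries are scaled, and those given here were chosen after the values were seen and carry no test. The ratio of Hspa5 to Hsp90b1 FPKM was 2.47, 2.97 and 3.26 in the controls and 1.76, 1.02 and 1.10 in the ultrasound libraries. BiP message was thus well above that of GRP94 in every control and nearly level with it in ultrasound libraries 2 and 3. The ratio of Dnajb9 to Hspa5 was 0.178, 0.184 and 0.176 in the controls, a narrow range, and 0.128, 0.0486 and 0.0447 in the ultrasound libraries. Dnajb9 was therefore lower even when counted per Hspa5 message. The ratio of Xbp1 to Hspa5 was 0.102, 0.0719 and 0.0757 in the controls and 0.233, 0.308 and 0.360 in the ultrasound libraries. Hspa5 made up 16.6%, 19.1% and 19.3% of the summed FPKM of the 38 genes in the controls and 13.2%, 8.44% and 9.06% in the ultrasound libraries. The sum itself was 2505, 2364 and 2293 FPKM in the controls and 2517, 2538 and 2730 FPKM in the ultrasound libraries. In the values as deposited, the fall of Hspa5 was thus not accompanied by a lower total. Unlike the ratios, this sum depends on how libraries are scaled, so it does not settle whether the total differed.

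**Figure D3:**
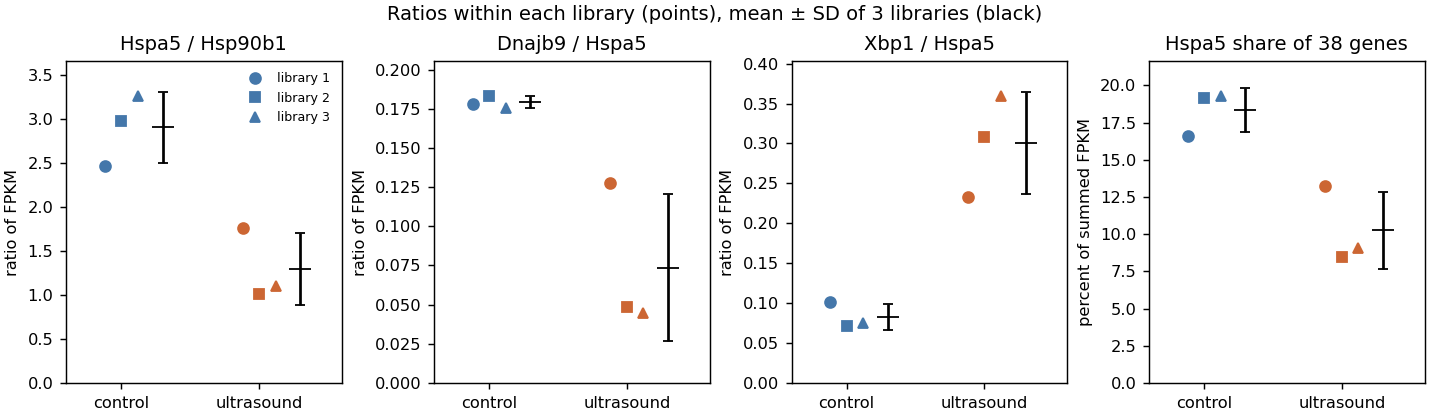
Ratios of FPKM within each library (3 panels) and the percent of the summed FPKM of the 38 genes held by Hspa5 (right), for each control and ultrasound library (points), with mean ± SD of 3 libraries in black. In each panel the 3 ultrasound libraries lie on one side of the 3 controls, with ultrasound library 1 the closest to them.

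The disulfide enzymes, which form and rearrange disulfide bonds in proteins folding in the ER, all had positive point estimates, also after each rescaling. Of the 6, 2 rose, where 6.55% of all genes tested were called higher. Creld2, an ER stress-inducible protein with disulfide isomerase activity, was at 24.3, 20.8 and 17.6 FPKM in the controls and at 30.5, 34.7 and 41.3 FPKM in the ultrasound libraries. The ranges were apart, and control library 1 was the closest to the ultrasound libraries. Means of 20.9 ± 3.34 and 35.5 ± 5.47 FPKM (SD, n = 3 each) gave a 1.70-fold ratio and a log2 difference of 0.74 ± 0.15 (SE, limma adjusted p = 0.0406).

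Pdia6, a protein disulfide isomerase that also binds BiP and IRE1, was at 53.6, 50.7 and 43.6 FPKM in the controls and at 65.0, 71.4 and 80.7 FPKM in the ultrasound libraries. Its groups did not overlap, and control library 1 and ultrasound library 1 were the closest values across them. The means were 49.3 ± 5.15 and 72.4 ± 7.91 FPKM (SD, n = 3 each), a 1.47-fold ratio and a log2 difference of 0.54 ± 0.12 (SE, limma adjusted p = 0.0440).

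Pdia4, a larger isomerase of the same family, had as large a log2 difference as Creld2, 0.73, without passing the test (limma adjusted p = 0.107). It was at 51.9, 45.1 and 41.3 FPKM in the controls and at 51.0, 94.6 and 94.2 FPKM in the ultrasound libraries. Its ultrasound library 1 lay within the control range. Pdia3, the partner of calnexin and calreticulin, and P4hb, the canonical protein disulfide isomerase, had groups that did not overlap with small differences of 0.22 and 0.24 (limma adjusted p = 0.166 and 0.111). Ero1b, the oxidase that recharges the isomerases, overlapped between groups at 0.41 (limma adjusted p = 0.145). Summed markers of plasma cells, macrophages and monocytes, neutrophils, NK cells and platelets were above all controls in each ultrasound library, as Creld2 and Pdia6 were. So were 25.9% of all genes tested. The sums of T cell, B cell, dendritic cell, erythroid and CD4 T cell markers were not, nor were single plasma cell markers such as Irf4. The part of any of these cells in the differences of the disulfide enzymes was not tested.

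None of the 9 genes of ER-associated degradation passed the limma test at an adjusted p under 0.05, against 8.11% of all genes tested. An unadjusted p under 0.05 was found for 3 of the 9, and for 3321 of all 10655 genes tested. In the authors' deposited table none of the 9 had a q under 0.05 either. Edem2, which takes part in trimming mannose from misfolded glycoproteins, had the largest point estimate. It was at 21.3, 18.3 and 19.6 FPKM in the controls and at 23.2, 35.1 and 40.1 FPKM in the ultrasound libraries (log2 difference 0.67 ± 0.20, SE, limma adjusted p = 0.0800). Its relative Edem1 had a difference of 0.01 (limma adjusted p = 0.949). Syvn1, the ubiquitin ligase Hrd1, was at 22.9, 22.2 and 24.7 FPKM in the controls and at 21.9, 38.3 and 43.3 FPKM in the ultrasound libraries (log2 difference 0.50, limma adjusted p = 0.199). Ultrasound library 1 was below all controls for Syvn1 and the other ultrasound libraries were far above them.

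Sel1l, the adaptor that holds Hrd1 in its complex, had a difference of 0.32 and Derl2, a channel protein of the complex, one of 0.24, both with groups that did not overlap (limma adjusted p = 0.106 and 0.114). Vcp, the ATPase that pulls substrates from the membrane, also had groups that did not overlap, at 0.10 (limma adjusted p = 0.411). Herpud1, an organiser of the complex, was at 0.25, Selenos, which recruits Vcp, at 0.04, and Derl1 at 0.01 log2 units, with overlapping groups. After rescaling by size factors the estimates of Edem1, Derl1, Selenos and Vcp were below 0, between -0.11 and -0.03.

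The translocon and signal peptidase genes, which carry out entry into the ER and the removal of signal peptides, differed least. None of the 9 passed the limma test, against 8.11% of all genes tested. An unadjusted p under 0.05 was found for 1 of the 9, and for 3321 of all 10655 genes tested. The median difference of the 9 was 0.03 against 0.09 for all genes tested. Ssr2, a subunit of the translocon-associated complex, was the gene of the group whose groups did not overlap. It was at 48.3, 44.2 and 43.1 FPKM in the controls and at 48.8, 73.3 and 80.4 FPKM in the ultrasound libraries (log2 difference 0.54 ± 0.19, SE, limma adjusted p = 0.111). Ultrasound library 1 was level with control library 1.

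Other subunits of the same complex did not follow Ssr2. Ssr3 was at 65.9, 59.8 and 55.1 FPKM in the controls and at 66.8, 43.4 and 46.4 FPKM in the ultrasound libraries (log2 difference -0.23, limma adjusted p = 0.381). Ssr1 was at 14.0, 11.8 and 11.1 FPKM in the controls and at 16.0, 10.4 and 10.01 FPKM in the ultrasound libraries (log2 difference -0.04, limma adjusted p = 0.881). In both, ultrasound library 1 was above all controls and the other ultrasound libraries were below all of them. Ssr4 had a difference of 0.03, and the translocon channel genes Sec61a1, Sec61b and Sec61g had differences of 0.20, 0.10 and -0.17. The signal peptidase subunits Spcs1 and Spcs2 had differences of 0.18 and 0.02.

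**Figure D4:**
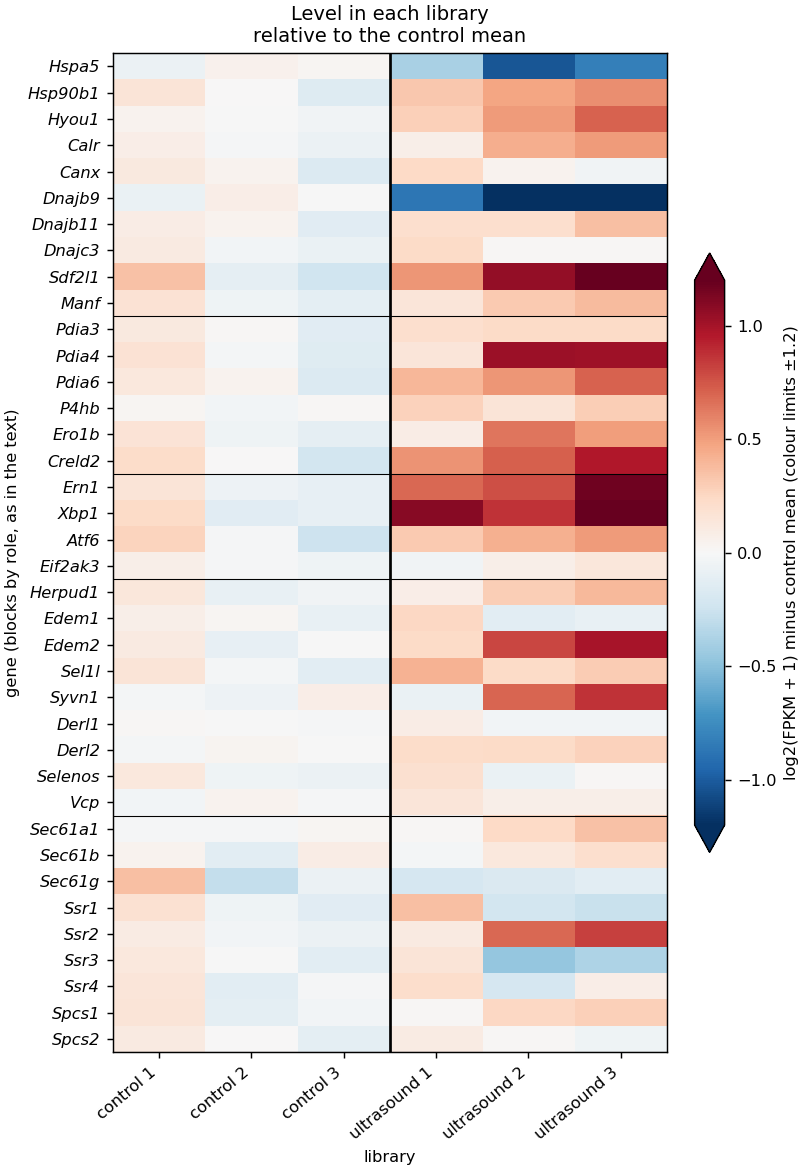
Level of each of the 38 genes in each library as log2(FPKM + 1) minus the control mean, with colours limited at ±1.2 and blocks by role. Hspa5 and Dnajb9 are blue in all 3 ultrasound libraries, and Xbp1 and Ern1 are red in all of them. Genes such as Pdia4, Calr and Syvn1 are redder in ultrasound libraries 2 and 3 than in any other library.

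The libraries of a group were not alike. For 9 members (Calr, Manf, Pdia4, Ero1b, Herpud1, Syvn1, Sec61a1, Sec61b and Spcs1) ultrasound libraries 2 and 3 lay above all controls and ultrasound library 1 did not, a pattern seen in 20.1% of all genes tested. For 3 members (Derl1, Ssr1 and Ssr3) library 1 lay above all controls and the others below, as in 9.03% of all genes tested. The number of members above all controls was 24, 25 and 26 in ultrasound libraries 1, 2 and 3, against 44.6%, 53.2% and 49.6% of all genes tested. The number below all controls was 3, 8 and 5, against 23.1%, 29.6% and 34.5%. Among the controls, library 1 was the highest for 31 of the 38 genes, where it was the highest for 36.0% of all genes tested, and library 3 was the lowest for 24 of them, against 41.0%.

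Relative to the control mean, Hspa5 was at -0.39 log2 units in ultrasound library 1 and at -1.02 and -0.82 in libraries 2 and 3. Dnajb9 was at -0.86 in library 1 and at -2.80 and -2.72 in the others, so both genes were below the controls in each library but by different amounts. Without ultrasound library 1, 25 members passed the limma threshold, 22 higher and 3 lower, but so did 53.7% of all genes tested, 34.1% higher and 19.7% lower. The differences of the 6 genes were then -0.92 for Hspa5, -2.76 for Dnajb9, 1.08 for Xbp1, 0.97 for Ern1, 0.84 for Creld2 and 0.62 for Pdia6. With a term that sets ultrasound libraries 2 and 3 apart, which leaves library 1 against the controls, Dnajb9 alone of the 38 passed the threshold, against 1.41% of all genes tested (log2 difference -0.86, limma adjusted p = 0.0195).

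Most calls depended on which libraries were kept. All 6 genes also passed without ultrasound library 1. Leaving out control library 2, control library 3, ultrasound library 2 or ultrasound library 3 left 0 members and 0 of all genes tested called by limma. The members at an unadjusted p under 0.05 then numbered 10, 10, 12 and 11. Of all 10655 genes tested, 1962, 2154, 2058 and 1998 were at an unadjusted p under 0.05 in these settings. Without control library 1, Creld2, Ern1 and Xbp1 were called, with 5.32% of all genes tested. After rescaling by median-of-ratios size factors or by upper quartiles, Ern1, Hspa5 and Xbp1 were called, whereas Dnajb9, Creld2 and Pdia6 were not. The difference of Dnajb9 was then -2.25 and -2.22, no smaller than before, with limma adjusted p of 0.0539 and 0.0512. All genes tested were then called in 4.39% and 5.85% of cases. A q under 0.05 in the authors' deposited table was given to 7 members, the 6 genes called by limma and Sdf2l1, against 12.3% of the genes listed there.

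Genes with the ER stress response element did not all share a direction, Hspa5 alone having a point estimate below 0. Of the 9 genes with a match, Creld2 and Pdia6 rose, Hspa5 fell, and Calr, Canx, Dnajc3, Ero1b, Hsp90b1 and Syvn1 did not pass the test. Their log2 differences ran from -0.74 to 0.74 with a median of 0.41. Of the 23 genes with a window and no match, Ern1 and Xbp1 rose and Dnajb9 fell, and the median difference was 0.18. The site in Hspa5 printed above spans bases -65 to -47, and that in Creld2 spans bases -126 to -108. All matches carry the same fixed letters because the search required them, so those letters say nothing of the opposite directions of these genes. No test of the element was made, and absence of these letters says nothing of other sites or of distant elements.

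**Figure D5:**
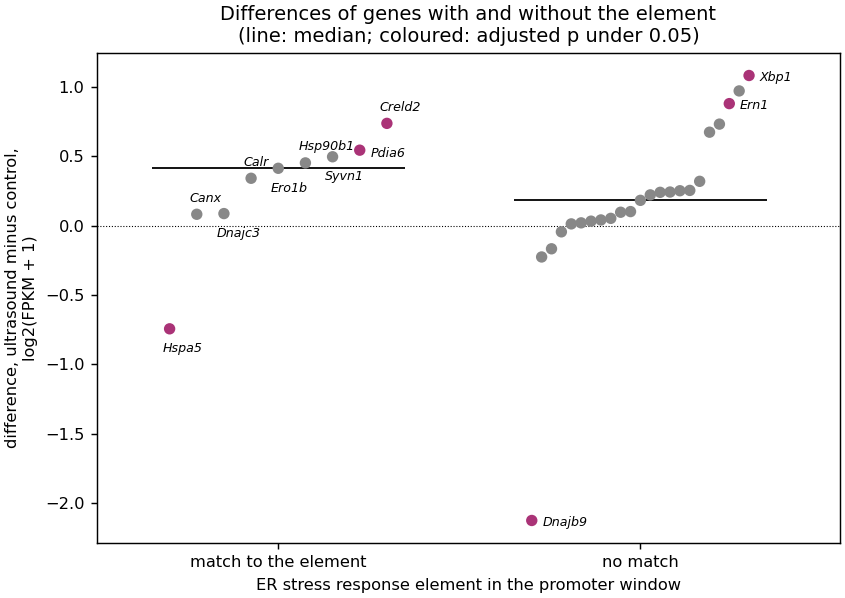
Difference between the ultrasound and control libraries on the log2(FPKM + 1) scale for the 9 genes with and the 23 genes without a match to the ER stress response element in the promoter window; the lines are medians and coloured points have an adjusted p under 0.05. Hspa5 stands alone below 0 among the genes with a match, and Dnajb9 lies lowest among those without.

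Other genes of the same pathways were read from a list of 92, of which 91 were in the table and 87 were tested. Of these, 6 were called higher and 1 lower, 8.05%, which is near the 8.11% of all genes tested, and their median difference was 0.13 against 0.09. The genes that rose were Txndc5 (log2 difference 0.94), Rpn1 (0.79), Prdx4 (0.64), Cnpy2 (0.59) and Kdelr2 (0.52), with limma adjusted p from 0.0304 to 0.0475. Txndc5 is a protein disulfide isomerase, Rpn1 a subunit of the oligosaccharyltransferase, Prdx4 an ER peroxiredoxin and Kdelr2 a receptor that returns ER proteins from the Golgi. The remaining call, Fkbp11, a prolyl isomerase (log2 difference 0.63), was below 1 FPKM in every control and could be tested only because it was higher in the ultrasound libraries, so it adds no support. By group, the calls were 5 of 28 folding genes, Fkbp11 among them, 1 of 26 genes of translocation and glycosylation, 0 of 21 further degradation genes, and 1 of 12 sensors and regulators.

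The single gene that fell belongs to the PERK branch. Ppp1r15a, which encodes GADD34, the subunit that directs a phosphatase to eIF2, was at 305, 330 and 417 FPKM in the controls and at 213, 93.3 and 120 FPKM in the ultrasound libraries (log2 difference -1.37 ± 0.30, SE, limma adjusted p = 0.0433). Like Hspa5 and Dnajb9, it was nearest to the controls in ultrasound library 1. Atf4, the transcription factor of that branch, was at 225, 254 and 278 FPKM in the controls and at 197, 154 and 168 FPKM in the ultrasound libraries (limma adjusted p = 0.0512). Ddit3, which encodes CHOP, was at 15.3, 17.8 and 21.8 FPKM in the controls and at 13.5, 8.99 and 10.01 FPKM in the ultrasound libraries (limma adjusted p = 0.0589). In both genes the groups did not overlap, and neither passed the threshold, although the authors' deposited table gives Atf4 a q of 0.00121 and Ddit3 a q of 0.00337.

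Plasma cell markers are given in full because Xbp1 and Creld2 are also high in antibody-secreting cells. Jchain, the joining chain of polymeric antibody, was at 114, 98.7 and 67.1 FPKM in the controls and at 271, 179 and 233 FPKM in the ultrasound libraries (log2 difference 1.29, limma adjusted p = 0.0312). Derl3, a degradation gene of secretory cells, rose by 1.54 log2 units (limma adjusted p = 0.0369). Sdc1, which encodes CD138, was at 1.004, 0.908 and 0.824 FPKM in the controls and at 2.71, 2.39 and 3.43 FPKM in the ultrasound libraries (limma adjusted p = 0.0297), but it reached the filter on low values only because it was higher there, so its call adds no support. Mzb1, an ER protein of B lineage cells, was at 29.3, 19.8 and 17.4 FPKM in the controls and at 26.5, 56.6 and 58.3 FPKM in the ultrasound libraries, and Prdm1 was at 1.89, 1.75 and 1.47 against 3.11, 1.69 and 2.56 FPKM. Neither passed the test (limma adjusted p = 0.103 and 0.223). Irf4, a factor shared with activated T cells, fell by 0.70 log2 units (limma adjusted p = 0.0304), and Tnfrsf17 was too low to be tested, at 0.0208 to 0.229 against 0.543 to 1.196 FPKM. The plasma cell sums were carried mainly by Jchain. By the median deviation of the tested markers from the control mean, ultrasound library 1 was the lowest of its group, at 0.78 log2 units against 0.90 and 1.28. By the summed FPKM of the listed markers, ultrasound library 1 was the highest of its group, at 328.0 against 265.7 and 327.7. The part of such cells in the values of Xbp1, Ern1 and Creld2 was not tested.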

How the data were processed

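RNA-seq of sorted mouse spleen CD8 T cells was deposited as a table of 17744 genes with 6 libraries, 3 per group, and no columns of other samples. Group and replicate number come from the sample titles. The FPKM values per library (fragments per unit of gene length and of sequencing depth) are the authors', per the file headers. The deposited table also holds, per the file headers, the signal columns (means of DESeq2 normalized counts over all libraries and over each group), the authors' fold change, its log2, and a p-value and q-value from DESeq2. HISAT2, HTSeq, DESeq2, R 3.2.0 and mm10 are named in the submitters' processing notes, with no role or settings. The kit that made the libraries is given in 2 versions by the labels, and the annotation and strand setting are not given in the sources used here.

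Genes with an FPKM of at least 1 in at least 3 libraries were tested (10655), on log2(FPKM + 1), with limma 3.58.1 in R 4.3.3 (trend and robust moderation, two-sided, Benjamini-Hochberg over all genes tested, threshold 0.05). Whole reads were recovered from FPKM and the group means: all of 31856 checked values of up to 50 reads lay within 0.05 of a whole number. They gave the depth, about equal in all libraries, and the voom alternative. On simulated data for this comparison, with a dispersion of 0.01, limma recovered 86% of 200 genes changed 1.5-fold (10450 genes tested) and 97.5% of those changed by a factor of 2 (10440). At a dispersion of 0.05 it recovered 1.5% (10447) and 59% (10467).

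The members and all gene and marker lists were chosen with earlier results of these data known, and no list was tested as a set. Values per library are given for members past the threshold, the sensors, Hspa5, Hsp90b1 and the largest differences among members with groups that do not overlap. Other members with per-library values were named after their values were seen. Of other lists, the largest called differences and Ddit3, Atf4, Ppp1r15a, Prdm1, Mzb1 and Jchain are named. Same-numbered libraries of the groups did not deviate together (correlations -0.04, 0.05 and 0.06). Promoter sequences are RefSeq windows on GRCm38.p6, searched in Python 3.11.15, and protein sequences were not used here. Alternatives were another pseudocount, filters, scalings, voom, no robust moderation, a replicate block, a term for ultrasound libraries 2 and 3, the authors' calls, a looser threshold and leaving out each library.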

Additional observations from a re-analysis of the deposited data

How the results depend on the processing

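The direction of the 6 genes that passed the threshold held under every alternative run, in 95 values: 43 stayed past the threshold and 52 did not. Their adjusted p ranged over these from 1.7e-05 to 0.159 for Xbp1, 0.000145 to 0.159 for Ern1, 0.000438 to 0.185 for Hspa5, 8e-06 to 0.186 for Dnajb9, 0.00401 to 0.173 for Creld2 and 0.00279 to 0.175 for Pdia6. The cause of the differences between settings was not tested.

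The calls numbered 6 members, 7 other pathway genes and 864 of all genes tested. Without a filter on low values they numbered 0, 0 and 0 (21 members and 4216 genes at an unadjusted p under 0.05). With median-of-ratios size factors they numbered 3, 3 and 468 (281 higher and 187 lower, against 698 and 166), and with upper quartiles 3 members (431 genes higher and 192 lower). With voom 573 genes were called (353 higher and 220 lower). The term for ultrasound libraries 2 and 3 gave 1, 0 and 150, and an adjusted p under 0.1 gave 10, 24 and 1962. The authors' deposited table gave 14 other pathway genes and 2179 genes. Leaving out 1 library gave 0 to 25 members, 0 to 58 other pathway genes and 0 to 5727 genes. Groups then did not overlap for 18 to 30 members. The share of all genes tested was not counted in these settings, so that range is not a result about the members. The highest counts came without ultrasound library 1.

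With the replicate number as a block, 0 members, 0 other pathway genes and 0 of all genes passed (15 members and 3249 genes at an unadjusted p under 0.05). The numbers share no label beyond the count.

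The median difference of the members, 0.24, was 0.12 with size factors, 0.15 with upper quartiles, 0.14 with voom and 0.13 in the authors' deposited table. The excess over the median of all genes ran from 0.09 to 0.20 over all alternatives.

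Among the 32 other members 55 of 512 values changed sign, over 14 genes. They are given in the order size factors, upper quartiles, voom, authors' deposited table. Canx was at -0.042, -0.012, -0.023 and -0.041. Dnajc3 was at -0.034, -0.0053, -0.017 and -0.033. Eif2ak3 was at -0.062, -0.035, -0.048 and -0.066. Edem1 was at -0.11, -0.081, -0.093 and -0.10. Derl1 was at -0.11, -0.085, -0.099 and -0.12. Selenos was at -0.081, -0.052, -0.066 and -0.080. Ssr4 was at -0.091, -0.062, -0.075 and -0.084. Spcs2 was at -0.10, -0.072, -0.086 and -0.11. Vcp was at -0.027 and Sec61b at -0.023 with size factors and in the authors' deposited table, and at -0.0086 and -0.0031 with voom. With the term for ultrasound libraries 2 and 3, Eif2ak3 was at -0.043, Syvn1 at -0.079, Sec61b at -0.021, Ssr1 at 0.36 and Ssr3 at 0.15. Leaving out 1 library gave ranges of -0.11 to 0.083 for Edem1, -0.031 to 0.027 for Derl1, -0.033 to 0.11 for Selenos, -0.31 to 0.012 for Sec61g, -0.25 to 0.068 for Ssr1, -0.058 to 0.15 for Ssr4 and -0.038 to 0.076 for Spcs2.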

Other observations

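The cytosolic and mitochondrial heat shock chaperones and co-chaperones were read as a comparison list. Some of them are relatives of Hspa5, Dnajb9 or Hsp90b1 outside the ER. Of 15 tested genes, 14 had a point estimate below 0, as had 4086 of all 10655 genes tested, and 8 had all ultrasound values below all controls, against 8.96% of all genes tested. Their median difference was -0.74 log2 units against 0.09 for all genes tested. The genes Hsp90aa1 and Dnaja1 fell, where 1.56% of all genes tested were called lower. Hsp90aa1, a cytosolic Hsp90, was at 204, 319 and 387 FPKM in the controls and at 164, 97.7 and 96.1 FPKM in the ultrasound libraries (log2 difference -1.34, limma adjusted p = 0.0441). Dnaja1, a cytosolic J-domain co-chaperone, was at 82.4, 115 and 151 FPKM in the controls and at 63.4, 46.2 and 53.0 FPKM in the ultrasound libraries (limma adjusted p = 0.0430). The summed FPKM of the 16 listed genes was 3018, 4168 and 5633 in the controls and 2607, 2469 and 2595 in the ultrasound libraries. The controls differed widely from each other for these genes, as they did not for Hspa5 and Dnajb9.

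Of 16 tested amino acid response targets of Atf4, 1 rose and 1 fell, where 6.55% of all genes tested were called higher and 1.56% lower. The median difference was 0.08 against 0.09 for all genes tested. Eif4ebp1, a repressor of translation, was at 7.31, 7.22 and 6.36 FPKM in the controls and at 16.0, 16.7 and 26.9 FPKM in the ultrasound libraries (limma adjusted p = 0.0304). Atf3, a stress-induced transcription factor, was at 83.2, 49.0 and 65.4 FPKM in the controls and at 29.4, 7.73 and 18.1 FPKM in the ultrasound libraries (log2 difference -1.93, limma adjusted p = 0.0470).

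The limma test called 6 of 10 macrophage and monocyte markers, 4 of 10 neutrophil markers and 2 of 7 tested NK cell markers. All of them were higher in the ultrasound libraries, as were 6.55% of all genes tested. Whether any of them passed the filter on low values only through the ultrasound libraries was not examined. The test called 0 of 9 B cell markers and 0 of 6 tested dendritic cell markers, and 0 of either list had an unadjusted p under 0.05. Summed erythroid markers were at 83.3 to 133 FPKM in the controls and 55.3 to 112 in the ultrasound libraries, platelet markers at 5.09 to 6.04 against 8.46 to 11.5, and CD4 T cell markers at 159 to 190 against 120 to 194. In ultrasound library 3, 1 platelet marker was at 0. No gene of these 3 lists passed the test, with 1, 1 and 2 genes at an unadjusted p under 0.05. Of all 10655 genes tested, 3321 had an unadjusted p under 0.05.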
